A study of Arabidopsis thaliana with 24 samples.

Results

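A set of 205 genes gave a signal at least 10-fold higher with estradiol than without it in roots of ISH1&2 plants, and reached that difference in neither ISH1 nor ISH2 plants. A gene was kept when the scanner software marked one of its probes as well above background on all 6 ISH1&2 arrays, when that probe differed 10-fold or more between the mean of the 3 arrays with estradiol and the mean of the 3 without, and when no probe of the gene did so in a single line. Of 34290 genes and transcript names on the array, 357 passed the condition on ISH1&2 plants, which is 1.40% of the 25555 with such a bright probe, and 152 of these were left out because of ISH1 or ISH2. Of the 205, 177 were matched to a locus and 28 carry only the array's own transcript name. The genes were thus chosen by their measured responses in ISH1&2, ISH1 and ISH2 plants, which are given below as a description, without a test, and the response of control plants is the measure that the choice did not use.

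The plants were Arabidopsis thaliana of ecotype Col-0, grown for 8 days on plates with hygromycin and then moved to plates with 5 µM estradiol or with none (0 µM), and total RNA was taken from the roots at an age of 15 days. The control, ISH1, ISH2 and ISH1&2 lines were each measured in both conditions with 3 replicates, on 24 one-colour Agilent arrays. In this system an estradiol-activated transcription factor (XVE) switches on the inserted genes through its operator, and the study used it to drive the transcription factor genes ATHB25 and REM7, together in the line that the labels call ISH1&2. The labels do not say which gene ISH1 and ISH2 each carry. How many independent lines or plants went into an array is not given in the sources used here, so p-values measure the spread between these samples, which may be technical. The description of the uninduced control array of replicate 2 and of the induced one of replicate 3 goes against their other labels, and the other labels were followed.

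ATHB25 encodes a zinc-finger homeodomain factor and REM7 a B3-type factor, and their joint induction was studied because it makes root tissue form green organs that resemble shoot stems. Several groups of genes below are known mainly from shoots. The epidermis of aerial organs covers itself with a cuticle of wax and cutin, chloroplasts of green cells carry light-harvesting and carbon-fixing proteins, and plant-specific CC-type glutaredoxins are small redox proteins that can bind transcription factors. In whole roots, a higher signal can come from more cells of a type or from more RNA per cell, and these cannot be told apart.

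Levels are log2 of the scanner's processed signal minus the 75th percentile of the array, so that 0 is the level of a probe at that percentile. A response is the mean level with estradiol minus the mean level without it, so that a response of 1 is a 2-fold difference. Brightness differs between probes for reasons other than RNA amount, and levels are therefore compared between arrays for the same gene. Each slide held all lines of 1 treatment and 1 replicate, so every response is a difference between slides. On 23 arrays 76.9% to 84.8% of the probes were well above background, and on the uninduced ISH1 array of replicate 1 90.9% were. All 12 root markers and all 8 markers of green tissue were well above background on every array. The summed root marker level, with the 75th percentile of each array as unit, lay between 84.2 and 109.6 in the 4 uninduced groups and with estradiol between 86.9 and 97.4 in control, 76.9 and 81.9 in ISH1, 88.9 and 96.3 in ISH2 and 67.6 and 72.0 in ISH1&2. The summed green marker level lay between 26.8 and 33.8 on the 12 uninduced arrays, between 106.1 and 111.3 in ISH1&2 with estradiol and between 5.32 and 7.04 in ISH2 with estradiol. CA1 is in that green list and is also among the 205 genes. PYK10, at a log2 level of 6.02 in uninduced control, leads the root sum. Single root markers differed in direction in ISH1&2, with responses of 2.59 for WOX5 and 0.64 for SCR, and of -1.69 for PHT1;1 and -1.16 for CASP1. The ATHB25 signal had a response of 4.89 in ISH1&2 and 9.69 in ISH1, and the REM7 signal 0.10 in ISH1&2, where it stood at 4.56 ± 0.06 (SD, n = 3) already without estradiol, and 6.11 in ISH2. In ISH1 the REM7 signal also responded, by 2.67, with a wide spread with estradiol (1.07 ± 1.41, SD, n = 3). In ISH2 the ATHB25 signal had a response of -1.23. The largest response of ATHB25 was thus in ISH1 and that of REM7 in ISH2. Without estradiol ATHB25 stood at -0.64 in ISH1&2 and -4.46 in ISH1, against -8.90 in control, where REM7 stood at -1.64. Both signals were thus above control in the uninduced ISH1&2 arrays from which its responses are measured.

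Across the 205 genes the response in ISH1&2 ran from 3.33 to 10.69 with a median of 4.05, against a median of -0.01 over all 27813 genes tested. The 3 arrays with estradiol lay above the 3 without it for all 205, which the choice favours, and the gap between the lowest array with estradiol and the highest without was 2.13 at its smallest and 3.60 at the median. The median SD over the 3 replicates was 0.13 with estradiol and 0.24 without. For 203 of the 205 genes the ISH1&2 group with estradiol had the highest mean of the 8 groups, which the choice also favours. Just inside the limit were ICL, an isocitrate lyase, at 3.33, LTI78 at 3.33 and CDT1, a small cysteine-rich protein named for cadmium tolerance, at 3.33. Just outside were MYB96, a regulator of wax synthesis, at 3.32, AT1G11040 at 3.32 and PTAC16, a protein of the plastid chromosome, at 3.31.

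**Figure D1:**
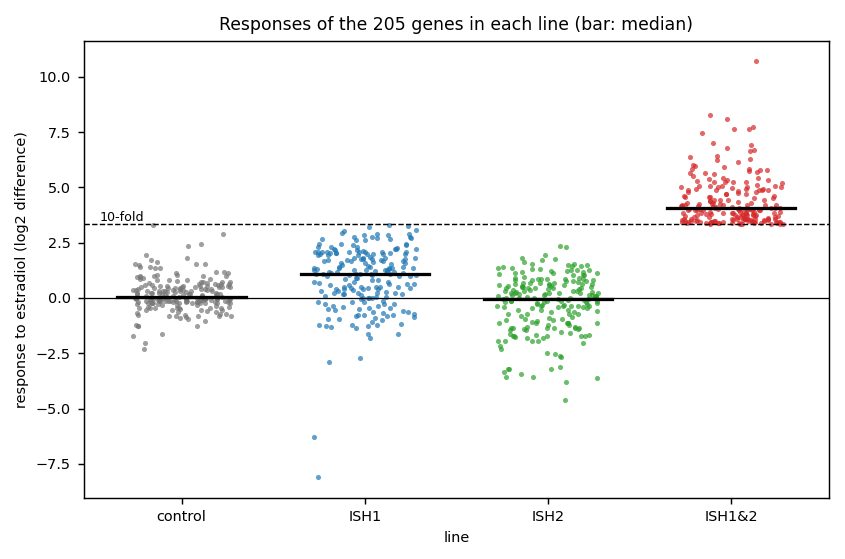
Responses to estradiol (log2 difference, vertical axis) of the 205 genes in each of the 4 lines, 1 point per gene, with the median as a bar and the 10-fold limit dashed. The genes were chosen to lie above the dashed line in ISH1&2, where the median is 4.05. Their medians are 1.09 in ISH1, -0.04 in ISH2 and 0.06 in control plants.

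The largest response belonged to AT2G27385, a protein of the pollen Ole e allergen and extensin family. Its level in ISH1&2 was -7.15, -8.57 and -7.82 on the arrays without estradiol and 2.84, 2.92 and 2.78 with it, a difference of 10.69 or 1651-fold, which became 8.79 with normexp background correction and 9.88 with a pseudocount of 16. In uninduced control plants it was between -7.26 and -7.06, and in ISH1 it lay above these values, between -4.86 and -3.36 without estradiol and between -5.79 and -4.23 with it. A second probe of this gene, not well above background on all 6 arrays, gave a response of 10.98.

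AT1G09310, a protein of unknown function, had the next largest response at 8.27, and 3 other probes gave 8.39 to 8.51. Its level in ISH1&2 was -3.90, -3.78 and -2.38 without estradiol and 4.78, 4.98 and 5.00 with it, and in ISH1 it was between -2.70 and -0.33 without and 1.15, 1.02 and 0.07 with it. The groups therefore did not overlap in either line, and the ISH1 arrays lay between those of control and induced ISH1&2. AT5G45950, a lipase of the GDSL family, reached 2.27, 2.39 and 2.41 in ISH1&2 with estradiol from -5.80, -5.94 and -5.51, a response of 8.11.

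LTP, a lipid transfer protein gene at AT2G15050, stood at -7.24, -7.17 and -6.23 in uninduced ISH1&2 and at 0.93, 0.80 and 0.85 with estradiol, a response of 7.74. The single lines had negative responses, of -1.23 in ISH1 and of -1.54 in ISH2, where 1 of the 3 arrays with estradiol was well above background. Of the 12 largest responses, 4 were of unmatched names, the highest of them 7.65. The remaining ones were AT5G18600 (GRXS2) at 6.92, AT5G63180, a pectate lyase, at 6.80, AT2G05540, a glycine-rich protein, at 6.68, and AT5G54630, a zinc-finger protein, at 6.66.

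**Figure D2:**
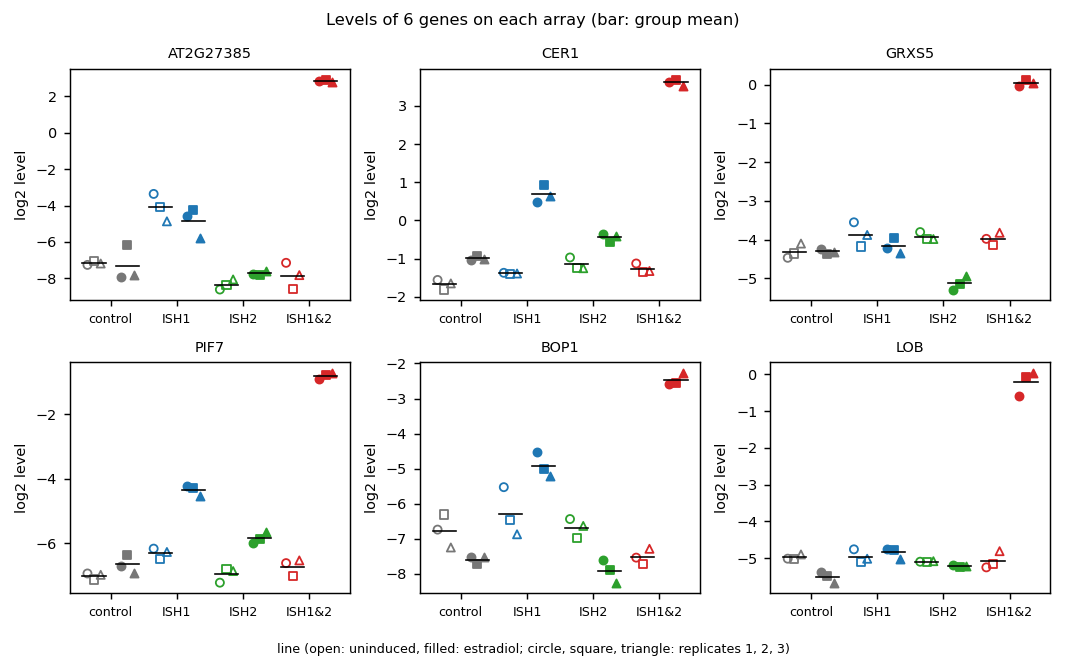
Level (log2 of the processed signal relative to the array's 75th percentile, vertical axis) of 6 of the 205 genes on each array, with lines on the horizontal axis, open symbols for uninduced and filled for estradiol, circle, square and triangle for replicates 1, 2 and 3, and bars for group means. In each panel the 3 ISH1&2 arrays with estradiol lie above the other 21 arrays. The ISH1 arrays of AT2G27385, and those with estradiol of CER1, PIF7 and BOP1, lie between these and the control arrays.

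In the single lines the responses of the 205 genes were mixed. In ISH1 111 of them (54.1%) were at least 2-fold higher with estradiol, where 9.91% of all genes were, and 16 (7.80%) at least 2-fold lower, against 5.37%. In ISH2 32 (15.6%) were at least 2-fold higher, against 3.99%, and 59 (28.8%) at least 2-fold lower, against 4.41%. The median response was 1.09 in ISH1 and -0.04 in ISH2, and 162 genes had a higher response in ISH1 than in ISH2. All 3 arrays with estradiol lay below the 3 without for 20 of the 205 genes in ISH1, against 38.3% of all genes, and for 79 in ISH2, against 24.9%. These shares describe genes whose single-line responses were part of the choice, which capped them at 10-fold.

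Sorted by the 2-fold limits, 61 genes were higher in ISH1 and within 2-fold in ISH2, 46 within 2-fold in both, 29 lower in ISH2 alone, 28 higher in both and 22 higher in ISH1 and lower in ISH2. Another 8 were lower in both, 7 lower in ISH1 alone, 3 higher in ISH2 alone and 1 lower in ISH1 and higher in ISH2. Closest to the 10-fold limit in ISH1 were CYP71B19, a cytochrome P450, with a response of 3.28, ChlAKR, a chloroplast aldo-keto reductase, with 3.27, and CIPK9, a kinase of calcium signalling, with 3.19. CIPK9 was at -2.63, -2.94 and -3.08 in uninduced ISH1 and at 0.57, 0.29 and 0.05 with estradiol, and in ISH1&2 it went from between -2.87 and -2.58 to between 1.02 and 1.18. In ISH2 the highest response was 2.34, of an unmatched name, followed by AT2G37870 with 2.28, a small protein of the lipid transfer type. AT2G37870 had positive responses in the other lines too, of 1.62 in control, 1.87 in ISH1 and 3.76 in ISH1&2.

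**Figure D3:**
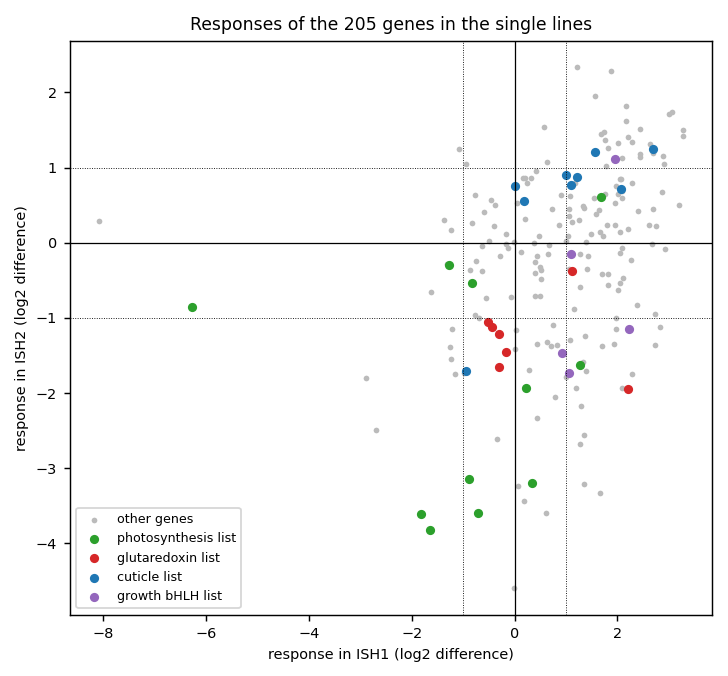
Response in ISH1 (horizontal axis) against response in ISH2 (vertical axis), both log2 differences, for the 205 genes, with members of 4 gene lists coloured and dotted lines at 2-fold. Photosynthesis and glutaredoxin genes lie mostly below 0 on the ISH2 axis, and most cuticle genes lie at or above 0 on both axes.

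Arrays that stood apart have to be set beside these single-line values. In uninduced ISH1, 59 of the 205 genes (28.8%) had a mean at least 2-fold above uninduced control, where 4.12% of all genes did, and in ISH2 and ISH1&2 the corresponding counts were 4, with 0.600% of all genes, and 18 (8.78%), with 0.974%. The 3 uninduced ISH1 arrays lay above the 3 uninduced control arrays for 94 of the 205 genes, against 9.98% of all genes, and the uninduced ISH2 arrays for 28, against 8.60%. At least 2-fold below uninduced control in ISH1&2 was 1 of the 205, with 0.579% of all genes. The uninduced ISH1 array of replicate 1 was at least 2-fold above both other replicates for 48 of the 205 genes (23.4%), against 9.31% of all genes. The control array of replicate 2 with estradiol was so for 31 (15.1%), against 0.654%, and no other array for more than 7. In the other direction, the uninduced ISH1 array of replicate 3 was at least 2-fold below both others for 14 (6.83%), against 0.744%. The control array of replicate 1 with estradiol was so for 8 (3.9%), against 0.252%.

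Because of the raised uninduced ISH1 level, the choice of baseline matters for single genes. Measured from uninduced control plants, 23 of the 205 genes were at least 10-fold higher in ISH1 with estradiol and 0 in ISH2, where 3.15% and 0.561% of all genes were. With that baseline for the single lines 184 genes met the rule, a setting chosen after seeing the data. Leaving out the uninduced ISH1 array of replicate 1 gave 201 genes, of which 200 were among the 205.

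Germin-like GER3, a cell-wall glycoprotein, had the lowest response in ISH1. It was at -0.52, -1.85 and -2.49 in uninduced ISH1 and not well above background on any ISH1 array with estradiol, which is at least 145-fold lower. In ISH1&2 it went from -7.07, -7.71 and -7.88 to -2.39, -2.72 and -2.83. Uninduced control lay between -8.83 and -8.60, so the uninduced ISH1 level was the one that stood apart. Another probe of GER3, not bright on all 6 arrays, gave -5.56 in ISH1. With estradiol control plants were at -9.67, -3.73 and -8.31, and again replicate 2 stood alone.

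RBCS2B, a small subunit of the carbon-fixing enzyme Rubisco, repeated this pattern. It was at -0.83, -2.10 and -2.85 in uninduced ISH1 and at -9.76, -8.05 and -6.82 with estradiol, a response of -6.28, and at -6.32, -7.96 and -7.04 and then -1.24, -2.06 and -2.34 in ISH1&2. In control plants it was between -7.53 and -6.52 without estradiol and at -8.12, 0.85 and -4.00 with it. The other 3 bright probes of RBCS2B gave 2.56 to 3.17 in ISH1&2, below the limit, and -1.47 to -0.57 in ISH1, while a dimmer probe gave 5.36 and -6.76. The summed green markers were 29.5 to 31.5 in uninduced ISH1, within the range of 26.8 to 32.9 in uninduced control. They were 31.3 on the control array of replicate 2 with estradiol, against 25.4 and 24.5 on the other replicates. LHCB1.3 and RBCS1A, at log2 levels of 3.72 and 3.38 in uninduced control, lead this sum. A shift of dim genes such as CA1, at -6.44 there, hardly changes it, so it cannot show whether such genes shifted.

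**Figure D4:**
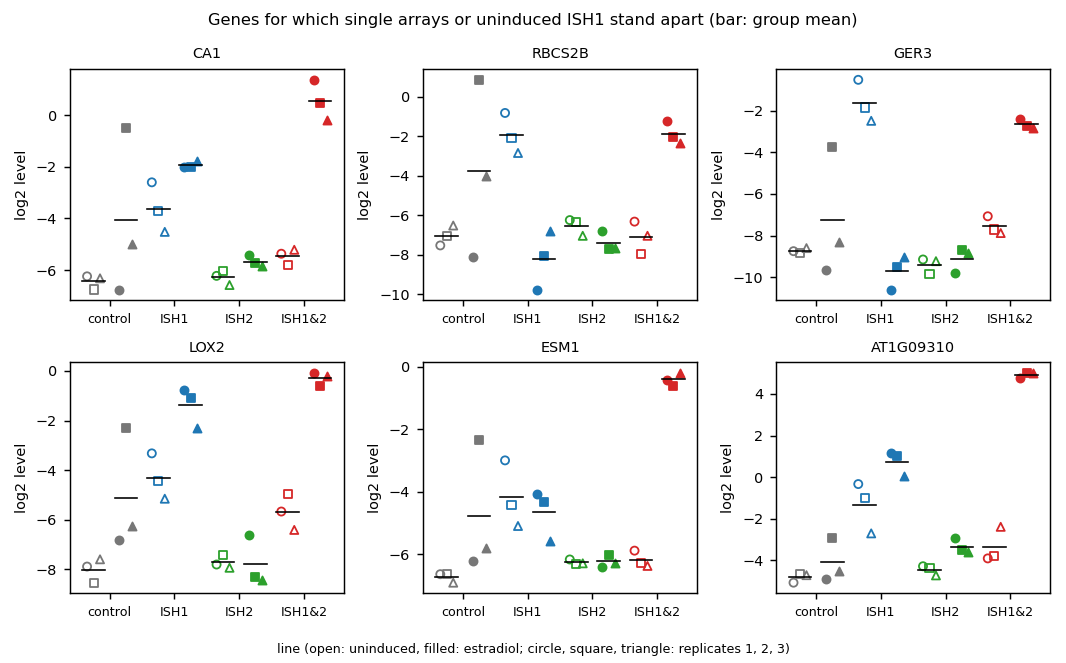
Level (log2, relative to the array's 75th percentile) of 6 of the 205 genes on each array, drawn as open symbols without and filled symbols with estradiol, by line, with bars for group means and circle, square and triangle for replicates 1, 2 and 3. In control plants with estradiol replicate 2 (square) lies above the other replicates, for example CA1 at -0.50 against -6.75 and -4.97. The uninduced ISH1 group mean lies above that of the other lines in each panel.

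Genes of the cuticle formed the first group looked at. Of 39 such genes tested 9 were among the 205, with responses between 3.45 and 5.08 in ISH1&2. By limma with Benjamini-Hochberg adjustment, 31.6% of all genes were called higher and 33.0% lower in ISH1&2 at an adjusted p below 0.05, and of the other 30 cuticle genes 15 were called higher and 11 lower. A gene that was bright only in induced ISH1&2 could enter this test, which favours a higher call here and in the lists below. In the single lines the 9 had median responses of 1.09 in ISH1 and 0.77 in ISH2, and 5 were at least 2-fold higher in ISH1.

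CER1, which takes part in making the alkanes of wax, was at -1.13, -1.35 and -1.33 in ISH1&2 without estradiol and at 3.64, 3.69 and 3.53 with it, a response of 4.89 (29.6-fold). In ISH1 it went from between -1.40 and -1.37 to 0.47, 0.94 and 0.65. CER2, needed for the longest wax chains, was at -5.38, -5.10 and -5.15 and then at -0.18, -0.05 and -0.16 in ISH1&2, a response of 5.08, and responded by 0.18 in ISH1 and 0.55 in ISH2. KCS6, a condensing enzyme of very-long-chain fatty acid synthesis, responded by 4.24 in ISH1&2, 0.00 in ISH1 and 0.75 in ISH2, and its 5 other probes gave 4.20 to 4.35 in ISH1&2. These enzymes thus differed in ISH1, where CER1 alone of the 3 responded by more than 2-fold.

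LTP1, a lipid transfer protein secreted by epidermal cells (LP1 in the reference table), was at -0.49, -0.47 and 0.43 and then at 4.67, 4.63 and 4.90 in ISH1&2, a response of 4.91, and its 3 other probes gave 5.70 to 6.40. Its neighbour LTP2 was at 1.94, 1.66 and 2.20 and then at 5.37, 5.44 and 5.50, a response of 3.50, and in ISH1 with estradiol it was at 4.10, 3.90 and 3.32. Such transfer proteins are related in sequence, and how far their probes tell them apart was not tested. MYB16, which controls epidermal cell shape and cuticle genes and was picked after its values were seen, had a response of 3.99 in ISH1&2, -0.94 in ISH1 and -1.70 in ISH2.

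In the photosynthesis group, 11 of 22 genes tested were members, with responses between 3.42 and 6.01 in ISH1&2, and all 11 others were called higher by limma, with a median of 1.84. In ISH2 the members had a median response of -1.93, and 7 of the 11 were at least 2-fold lower. Every green marker used above is also in this list, CA1 as a member and the rest among the others. The marker sums are therefore no separate measure beside it. The part of green tissue in these values was not tested.

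CA1, a carbonic anhydrase of chloroplasts, was at -5.37, -5.79 and -5.21 in ISH1&2 without estradiol and at 1.37, 0.47 and -0.19 with it, a response of 6.01. All 7 other probes gave 5.30 to 7.04. In ISH1 it was at -2.60, -3.73 and -4.52 and then at -2.00, -1.99 and -1.79, above all uninduced control arrays in both conditions. LHCB1.1 (CAB2 in the reference table), a light-harvesting protein, was at -2.74, -2.57 and -2.20 and then at 3.27, 3.13 and 3.11 in ISH1&2, and at -2.93, -2.88 and -3.35 and then at -6.20, -6.72 and -5.69 in ISH2. The groups did not overlap in either line and lay in opposite order. Its 2 other bright probes gave 1.72 and 1.81 in ISH1&2, and the gene has near-identical copies, so the size is uncertain.

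RBCS1B and RBCS3B, which neighbour RBCS2B, had responses of 3.74 and 3.57 in ISH1&2 and of -3.61 and -3.82 in ISH2. RBCS3B was at 0.10, 0.28 and -0.11 in uninduced ISH2 and at -4.03, -4.63 and -2.54 with estradiol, while ISH1&2 went from between -0.35 and 0.13 to between 3.16 and 3.72. The other probes of RBCS1B stayed below the 10-fold limit, between 1.78 and 3.26, and those of RBCS3B gave 2.31, 2.43 and 3.46. PIFI, an NDH-dependent electron flow protein of chloroplasts, responded by 4.56 in ISH1&2, 1.27 in ISH1 and -1.63 in ISH2, and its 2 other probes by 4.85 and 5.02 in ISH1&2.

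**Figure D5:**
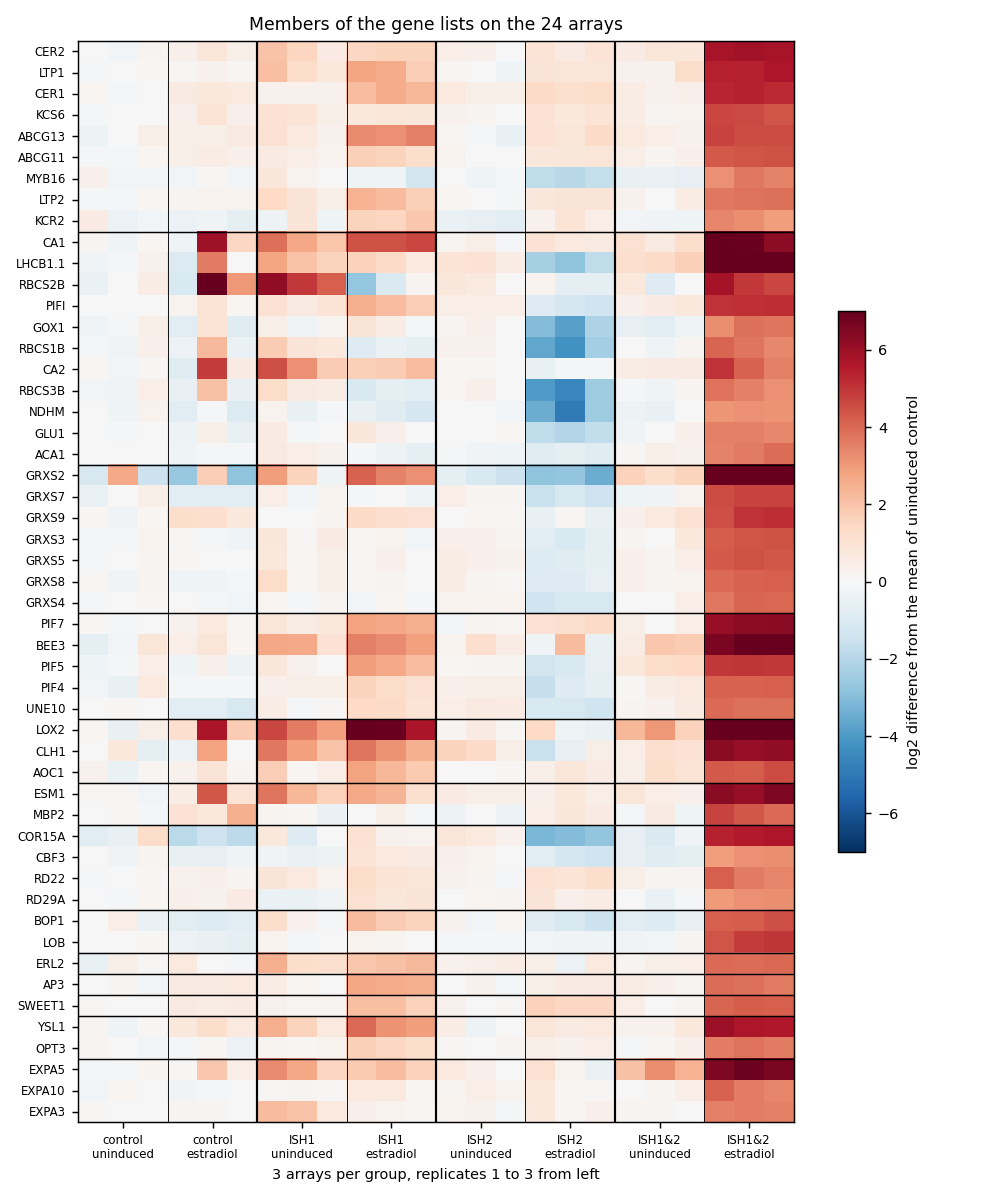
Members of the gene lists (rows) on the 24 arrays (columns, 3 per group), as log2 difference from the mean of the uninduced control arrays (colour, cut at 7 in either direction). From the top the blocks hold cuticle, photosynthesis, glutaredoxin, growth bHLH, jasmonate, glucosinolate, cold, lateral organ, stomata, floral MADS, SWEET, metal handling and expansin genes. The last 3 columns, ISH1&2 with estradiol, are red in each row, and single columns of control with estradiol and of uninduced ISH1 are red for part of the rows.

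Of 20 CC-type glutaredoxin genes tested, 7 were members, and of the other 13, 6 were called higher and 4 lower in ISH1&2. GRXS3, GRXS4, GRXS5, GRXS7 and GRXS8 lie together on chromosome 4, from AT4G15660 to AT4G15700, and formed the largest group of neighbours. Their responses were 4.05, 3.79, 4.03, 4.78 and 3.83 in ISH1&2, between -0.52 and -0.17 in ISH1 and between -1.66 and -1.06 in ISH2. GRXS5 was at -3.98, -4.14 and -3.82 and then at -0.04, 0.13 and 0.05 in ISH1&2, and at -3.81, -3.97 and -3.99 and then at -5.29, -5.16 and -4.95 in ISH2. The groups were separate in both lines. The 5 genes are closely related, each had 1 probe, and whether these tell them apart was not tested.

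GRXS2 (AT5G18600), elsewhere in the genome, gave the largest response of the family. It was at -5.70, -6.07 and -5.71 and then at 1.21, 1.12 and 0.94 in ISH1&2, a response of 6.92, and at -4.39, -5.75 and -7.61 and then at -3.18, -3.84 and -4.11 in ISH1. In control plants replicate 2 stood at -4.67 without and -5.58 with estradiol, while the 4 other arrays lay between -10.10 and -8.40. GRXS9 (AT2G30540) responded by 4.21 in ISH1&2, by 1.11 in ISH1 and by 1.05 in control plants, where it was called higher.

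Among PIF, BEE, PRE, HEC and related factors, bHLH proteins that act in light, hormone and growth responses, 5 of 21 tested genes were members, and 10 of the 16 others were called higher and 3 lower. PIF7, which acts in shade responses, was at -6.61, -7.02 and -6.52 and then at -0.91, -0.76 and -0.71 in ISH1&2, a response of 5.92, and responded by 1.96 in ISH1 and 1.11 in ISH2. BEE3, a brassinosteroid-responsive factor, responded by 5.43 in ISH1&2 and was well above background on 1 control array in all. PIF4, a factor of warm-temperature growth, and PIF5 (PIL6 in the reference table) responded by 3.71 and 3.83 in ISH1&2 and by -1.46 and -1.14 in ISH2. PIF5 also responded by 2.22 in ISH1, from between -5.88 and -5.10 to between -3.72 and -2.96.

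Jasmonate genes gave 3 members of 23 tested, with 13 of the 20 others called higher and 4 lower. LOX2, a chloroplast lipoxygenase of jasmonate synthesis, was at -5.67, -4.96 and -6.41 and then at -0.08, -0.60 and -0.22 in ISH1&2, a response of 5.38. It was at -3.32, -4.43 and -5.15 and then at -0.77, -1.08 and -2.30 in ISH1, a response of 2.92. CLH1, a chlorophyllase, responded by 5.31 and AOC1, an allene oxide cyclase, by 3.48, although another bright AOC1 probe gave 1.68. Of 19 glucosinolate genes 2 were members, and of the 17 others 10 were called higher and 5 lower. ESM1, which shifts the products of glucosinolate breakdown, responded by 5.77 in ISH1&2 and was at -6.21, -2.35 and -5.78 in control with estradiol. MBP2, a myrosinase-binding protein, responded by 4.27.

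Cold-regulated genes gave 4 members of 17, and of the 13 others 7 were called higher and 3 lower. COR15A, a chloroplast protein that protects membranes during freezing, was at -6.13, -6.58 and -5.83 and then at -0.17, -0.02 and 0.10 in ISH1&2, a response of 6.15. In ISH2 it was at -4.69, -4.89 and -5.28 and then at -8.74, -8.62 and -8.31, a response of -3.60, with 1 of the 3 arrays with estradiol well above background. CBF3 (DREB1A), the factor that turns on such genes, responded by 3.81 in ISH1&2, 1.09 in ISH1 and -1.30 in ISH2. RD22 and RD29A (LTI78), induced by drought, responded by 3.49 and 3.33.

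Of 8 tested regulators of lateral organs, which include YABBY genes of leaf polarity, genes of organ boundaries and the branching regulator BRC1, BOP1 and LOB were members, and of the 6 others 4 were called higher and 0 lower. BOP1, which acts at the base of leaves and flowers, was at -7.54, -7.72 and -7.29 and then at -2.60, -2.54 and -2.27 in ISH1&2, a response of 5.04, and responded by 1.37 in ISH1 and -1.24 in ISH2. LOB, a boundary factor, was at -5.25, -5.15 and -4.81 and then at -0.59, -0.07 and 0.04, a response of 4.87, with 0.12 in ISH1 and -0.12 in ISH2. LOB stayed within a narrow range, from -5.67 to -4.74, on the other 18 arrays.

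The remaining lists held few members. ERL2, a receptor kinase that limits the number of stomata, was the single member of 23 stomatal genes, with 19 of the 22 others called higher and 2 lower. Several of these others, among them SPCH and MUTE, were well above background on all 3 arrays of a group only in induced ISH1&2. The test took them in through that group, which favours a higher call. ERL2 was at -8.56, -8.35 and -8.32 and then at -4.82, -4.86 and -4.74 in ISH1&2, and no control array had it well above background. AP3, a floral MADS factor for petals and stamens, was the single member of 16 such genes, with responses of 3.44 in ISH1&2 and 2.40 in ISH1. It was also called higher in control plants, with a response of 0.65. Of the 15 other MADS genes 11 were called higher and 3 lower. Among them AG, SEP3 and AGL6 had larger responses than AP3 in ISH1&2, of 9.73, 6.69 and 5.66. The sugar transporter SWEET1 responded by 3.96 in ISH1&2, 1.75 in ISH1 and 1.37 in ISH2, and of the 13 other SWEET genes 7 were called higher and 2 lower. YSL1, a carrier of metals bound to nicotianamine, and OPT3, which moves iron in the phloem, responded by 5.29 and 3.53, and of the 12 other genes of metal handling 6 were called higher and 3 lower. The cell-wall-loosening expansins EXPA5, EXPA10 and EXPA3 (EXP3) responded by 4.07, 3.48 and 3.41, and of the 10 other expansins 3 were called higher and 5 lower. None of 13 trichome genes was among the 205, and 3 of them were called higher and 7 lower. The 3 called higher, ZFP8, TCL2 and GIS, responded by 7.56, 4.70 and 4.62 in ISH1&2. They were left out because they were not well above background on all 3 uninduced ISH1&2 arrays. The same held for 4 stomatal, 3 lateral organ and 3 metal handling genes that reached 10-fold in ISH1&2. Absence from the 205 therefore need not mean a small response. In all, 51 of the 205 genes were in one of the 14 lists, which were written with earlier results in view and are no independent evidence of a direction.

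GRP-3, a glycine-rich protein, was at -0.45, -0.90 and -0.13 and then at 5.25, 5.56 and 5.64, and at 1.49, 1.18 and 0.50 and then 3.65, 3.44 and 2.72 in ISH1. Of its other bright probes one gave 6.07 and one 1.11 in ISH1&2, so the probes disagree. Most above uninduced control in uninduced ISH1&2 were EXPA5 by 2.58, LOX2 by 2.33 and AT2G34210, a relative of elongation factor SPT5, by 2.14. The EXPA5 and AT2G34210 probes were not well above background on any uninduced control array.

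Of the 205 genes 56 had more than 1 bright probe, and for 33 of these all bright probes reached 10-fold in ISH1&2. For the other 23, among them RBCS1B, RBCS2B, RBCS3B, LHCB1.1, GRP-3, AOC1 and CYP71B19, at least 1 did not. A further 129 genes had a single probe. Along the chromosomes of the reference assembly TAIR10.1, 22 genes fell into 9 groups with at most 3 other annotated genes between neighbours. Beside the glutaredoxins these were the 3 RBCS genes on chromosome 5, LTP1 with LTP2 and GRP-3 with AT2G05540 on chromosome 2, and 5 further pairs. The 177 placed genes were spread as 48, 29, 26, 30 and 44 over chromosomes 1 to 5.

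In control plants, whose responses were not used for the choice, the median response of the 205 genes was 0.06, against -0.00 over all genes, and the values ran from -2.29 to 3.28. By limma across all 27813 genes, 26 of the 205 (12.7%) were called higher with estradiol, where 7.14% of all genes were, and 18 (8.78%) lower, where 7.86% were. At an unadjusted p below 0.05 there were 46 and 23. All 6 control arrays were well above background for 161 of the 205 genes, among them 24 of the 26 and 16 of the 18. These counts depended on single arrays. Without the uninduced control array of replicate 2 the 26 became 15, and without control arrays of contradictory description they became 11 higher and 6 lower. The 18 became 9 without uninduced replicate 3, 11 without replicate 1 with estradiol and 10 without replicate 3 with estradiol. Shares over all genes are not given for the unadjusted counts or for these changed settings. Whether the changes are particular to the 205 genes can therefore not be told.

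ChlAKR, which detoxifies reactive carbonyls, was at -4.98, -5.08 and -5.14 in uninduced control and at -3.41, -3.47 and -3.19 with estradiol. Its response of 1.71 ± 0.17 (SE) had an adjusted p of 8.78e-06 by limma, and 6.73e-05 to 0.000124 with each control array left out. Its response in the other lines was 3.27 in ISH1, 1.49 in ISH2 and 3.56 in ISH1&2. AT2G37870 was at -1.91, -3.08 and -2.33 and then at -0.85, -0.77 and -0.84 in control, a response of 1.62 ± 0.29 (SE) with an adjusted p of 0.00114. MBP2 rose by 1.41 ± 0.34 (SE), with an adjusted p of 0.0104, and by 0.88 without replicate 3 with estradiol, with an adjusted p of 0.046. LOX2 had the largest called response, 2.88 ± 0.85 (SE) with an adjusted p of 0.0298, from between -8.54 and -7.60 to -6.82, -2.29 and -6.25, and lost the call without replicate 2 with estradiol, where the response was 1.47 and the adjusted p 0.14. Its 3 other probes, not bright on all 6 ISH1&2 arrays, gave -0.69 to 0.31 in control plants.

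Among the genes called lower in control plants, AT2G14247, a protein of unknown function, fell by 2.29 with an SE of 0.44 and an adjusted p of 0.00219, from -3.53, -4.69 and -3.43 to -5.92, -5.68 and -6.92. PAP1, a MYB factor that turns on anthocyanin synthesis, was at -5.65, -5.62 and -4.79 and then at -7.41, -6.90 and -7.84, a response of -2.03 ± 0.45 (SE) with an adjusted p of 0.00595. In ISH2 its response was -4.60, with 1 array well above background with estradiol, in ISH1 -0.01, and in ISH1&2 3.62. COR15A fell by 1.72 with an SE of 0.43 and an adjusted p of 0.013, and without uninduced replicate 3 the response was -1.07, with an adjusted p of 0.062. LOB fell by 0.53, with an adjusted p of 0.0161, which became 0.075 without replicate 3 with estradiol, and its other probe gave -0.09. CER1 rose by 0.68, with an adjusted p of 0.000326 that stayed at or below 0.00271 with each control array left out, and its other probe gave 0.17.

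Set against control plants in the same condition, the induced ISH1&2 arrays lay between 1.64 and 10.15 above induced control for the 205 genes, with a median of 4.22, and at least 10-fold above it for 179. Without estradiol the corresponding difference had a median of 0.17 and ran from -1.44 to 2.58. With estradiol the ISH1&2 mean was above that of ISH2 for all 205 genes, by at least 1.33, and above that of ISH1 for 204, with medians of 4.81 and 2.83. The choice used the induced ISH1&2 arrays and so favours these differences, and shares over all genes are not given for them. When the response of control plants was subtracted from those of the other lines before the rule was applied, 223 genes met it, 160 of them among the 205.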

How the data were processed

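Per the file headers, the scanner intensity was processed in Agilent Feature Extraction, which corrects the background and leaves arrays unscaled. The log2 table that the authors deposited was scaled to the 75th percentile of each array and centred on each probe's median, and served as an alternative. Control spots and 346 flagged spots were left out, spots of a probe were averaged, and the 75th percentile of each array was subtracted after log2. Probes were named through their accession, 34348 of 43603 with a locus. The brightest qualifying probe stood for a member. For tests, limma 3.58.1 in R 4.3.3 was fitted to 24 arrays in 8 groups with 27813 genes that were well above background on all 3 arrays of a group, two-sided, with Benjamini-Hochberg adjustment at 0.05, and was tested on simulated data. Gene lists were written by hand, and members, lists and tests were chosen with earlier results of these data known. The genes named are the 12 largest responses, at most 4 per list beside a few list members, those at the limits of the rule, those called in control plants, those with the brightest and dimmest probes, the largest group of neighbours, and genes of the closing section. Their number of arrays, 3 per group, limits the precision. Alternatives were other background corrections, scalings, filters, probe choices and blocks, and single arrays left out. Sequences were not used here. In the main fit, samples were not paired by replicate number.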

Additional observations from a re-analysis of the deposited data

Results flagged for a closer look

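Genes with opposite responses in ISH1&2 and in a single line, with no overlap between arrays, are given here. The difference between lines was not tested, because these responses chose the genes. All arrays with estradiol lay above those without in ISH1&2 and below them in ISH1 for 20 of the 205 genes, and below them in ISH2 for 79. Over all genes, the arrays with estradiol lay below those without for 38.3% in ISH1 and 24.9% in ISH2. The opposite response was 10-fold or more for 2 genes in ISH1, GER3 at a measured -8.09, which is at least 145-fold lower because no ISH1 array with estradiol was well above background, and RBCS2B at -6.28. In ISH2 it was so for PAP1 at -4.60, RBCS3B at -3.82, RBCS1B at -3.61, COR15A at -3.60, NdhM, a subunit of the chloroplast NDH complex, at -3.59, PGLP1, a phosphatase of photorespiration, at -3.43, and AT5G42760 at -3.33. With estradiol, RBCS2B was well above background on 2 of 3 ISH1 arrays, and in ISH2 PAP1, COR15A and PGLP1 on 1 of 3 and NdhM on 2 of 3. Uninduced ISH1 stood above uninduced control by 7.11 for GER3 and 5.11 for RBCS2B. The other bright probes of RBCS2B gave -1.47 to -0.57 in ISH1. PAP1 and COR15A also had negative responses in control plants, of -2.03 and -1.72. NdhM, PGLP1 and AT5G42760 were singled out after their values were seen.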

How the results depend on the processing

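The rule found 205 genes. It found 126 with normexp background correction on the median signal (115 of them among the 205), 426 without the filter on dim probes and 135 when a probe had to be well above background on all 24 arrays. With quantile normalization, a pseudocount of 16, the authors' log2 values, the brightest probe alone, the control response subtracted or, chosen after seeing the data, the single lines set against uninduced control, it found between 173 and 223. Leaving out 1 array gave 201 to 234. Of the genes called in control plants, 26 higher and 18 lower, normexp left 15 and 0 by limma (51 and 0 at an unadjusted p below 0.05), and a fit restricted to probes that were bright on each of the 24 arrays gave 27 and 11, where 135 of the 205 could be tested. Without the control arrays of contradictory description there were 11 and 6, and with each control array left out 15 to 28 and 9 to 15. With the replicate block there were 27 and 19. Control arrays of the same number shared little deviation (correlations of 0.03, -0.03 and 0.06). That covers control plants only and cannot show whether samples of the same number were grown or processed together. With the slide as a random block there were 27 and 17. The cause of these changes was not tested, and shares over all genes under the same settings are not given beside them. Responses of the 67 named genes in ISH1&2 stayed above 0 under each alternative run, at 41.0% to 114% of their main value, lowest with normexp. Of the 205 genes 135 were well above background on all 24 arrays.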
